A study of Torulaspora delbrueckii with 9 samples.

Results

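The ribosomal DNA (rDNA) of the budding yeast Torulaspora delbrueckii was described from 6 deposited ChIP-seq peak lists of the origin recognition complex (ORC). Members were all peaks on chromosome 8 that overlapped the 32 kb from position 780000, the stretch that holds the annotated rRNA genes. They were 8 of the 1900 peaks in the 6 lists. The stretch also holds 8 member genes of the 5174 in the gene table, namely 3 genes for the 25S rRNA, 3 for the 18S rRNA and 2 for the 5S rRNA, together with 3 genes for the 5.8S rRNA. Positions are 1-based on assembly ASM24337v1, whose gene table was used.

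Each immunoprecipitate came from cells with 1 tagged ORC subunit. Orc1 with a MYC tag was precipitated from strains LRY3204 and LRY3211, Orc2 with a V5 tag from LRY3142 and LRY3143, and Orc4 with a V5 tag from LRY3138 and LRY3139. The controls were 2 genomic inputs and 1 mock immunoprecipitate, all from the untagged strain JRY10156 by their labels. The peak names give the number 3135 for the control strain instead, and the labels do not explain the difference. Growth was at 30 °C in rich medium (YPD), and cross-linking in formaldehyde lasted 1 hour. The labels give no further genotype and no promoter for the tagged genes. Peak names hold the words SIR in Orc1 library 1 and Kos3V5 in Orc1 library 2, which the labels do not explain. The design text calls both libraries of a subunit technical replicates, although their strain numbers differ, so the spread between them may be technical. Orc1 peaks had been called against genomic input and Orc2 and Orc4 peaks against the mock. Subunit, tag, antibody and kind of control cannot be told apart in any comparison of Orc1 with the other subunits.

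Yeast rRNA genes lie in tandem repeats. In Saccharomyces cerevisiae RNA polymerase I makes the long precursor of the 18S, 5.8S and 25S rRNAs, and RNA polymerase III makes the 5S rRNA from a gene in the spacer between precursor genes. In that species the spacer between the 5S gene and the start of the precursor holds a replication origin, and the spacer on the other side of the 5S gene holds a replication fork barrier bound by Fob1. ORC marks origins for the loading of the replicative helicase, and Orc1 is the subunit related to the silencing protein Sir3. Silencing of the S. cerevisiae rDNA depends on Sir2.

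The annotated repeats of T. delbrueckii had the same layout in every copy. Neighbouring copies of the 25S, 5.8S, 18S and 5S genes lay 8731 bp apart in each case. From left to right a unit held the 25S gene (3395 bp), the 5.8S gene (158 bp), the 18S gene (1798 bp), a spacer of 1589 bp, the 5S gene (121 bp), and a spacer of 1120 bp before the next 25S gene. The first unit ran from Tdel_RDN25-1 (785310 to 788704) through Tdel_RDN18-1 (789413 to 791210) to Tdel_RDN5-1 (792800 to 792920). The second held Tdel_RDN25-2 (794041 to 797435), Tdel_RDN18-2 (798144 to 799941) and Tdel_RDN5-2 (801531 to 801651). The third held Tdel_RDN25-3 (802772 to 806166) and Tdel_RDN18-3 (806875 to 808672) with no annotated 5S gene after it. The nearest protein-coding genes were TDEL0H04500 (779335 to 780216), whose end reaches into the window, and TDEL0H04510 (813321 to 815075). The gene table was used without strands.

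Orc1 was listed in both spacers that hold a 5S gene, in both libraries. Around Tdel_RDN5-1 the peak ran from 791973 to 793865 in Orc1 library 1 and from 792091 to 793778 in Orc1 library 2. Around Tdel_RDN5-2 it ran from 800671 to 802595 in library 1 and from 800841 to 802491 in library 2. These 4 peaks covered the whole 5S gene and parts of the spacer on both sides. On the side of the 18S gene they covered 827 and 860 bp of the 1589 bp in library 1, and 709 and 690 bp in library 2, which is 43.4% to 54.1% of the spacer. On the side of the 25S gene they covered more of the spacer, 84.4% and 84.3% in library 1 and 76.6% and 75.0% in library 2.

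**Figure D1:**
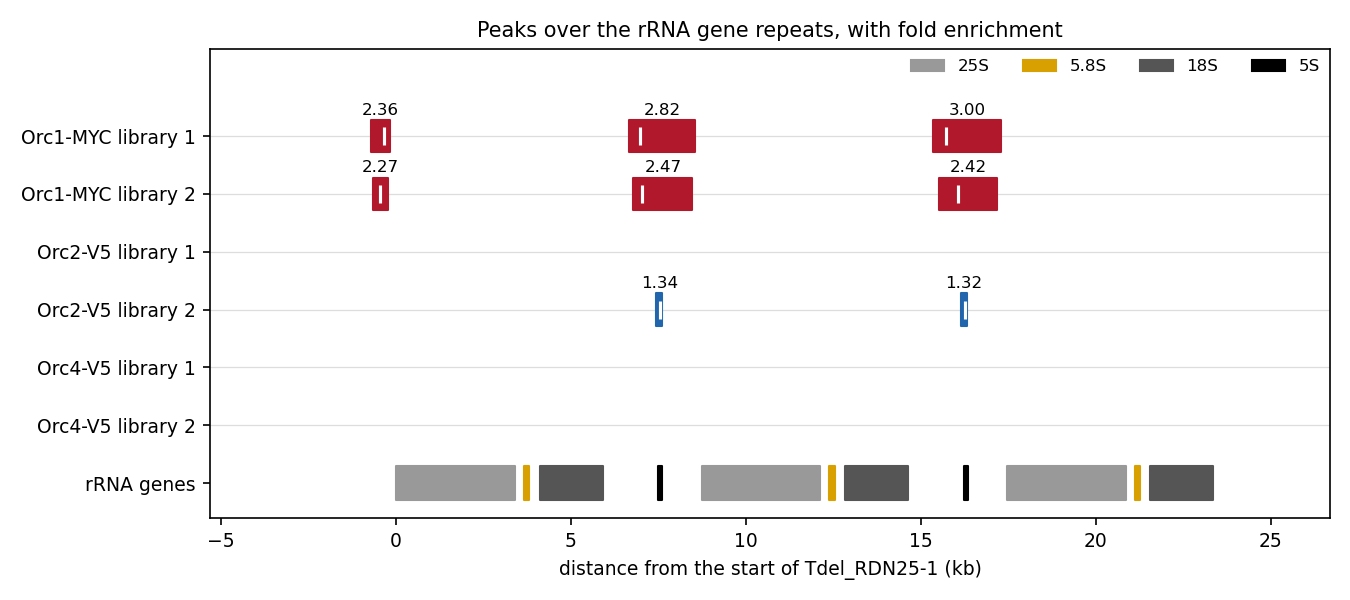
Peaks of the 6 lists over the rRNA genes, by distance in kb from the start of Tdel_RDN25-1. Bars are peaks, white ticks are summits, and numbers above bars are the authors' fold enrichment. Each Orc1 library has 3 peaks, Orc2 library 2 has 2 narrow ones, and the other lists have none.

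The genes transcribed by RNA polymerase I in S. cerevisiae had no peak. None of the 25S, 5.8S or 18S genes overlapped a peak in any of the 6 lists. The Orc1 peaks ended 176 to 178 bp short of the 25S genes in library 1 and 242 to 281 bp short in library 2. They began 763 and 730 bp from the 18S genes of the first and second unit in library 1, and 881 and 900 bp from them in library 2. Tdel_RDN18-3, the last rRNA gene annotated in the window, was the exception, with its nearest Orc1 peak edge 4280 and 4384 bp away.

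Another Orc1 peak lay left of the first unit in both libraries, where no 5S gene is annotated. It spanned 784579 to 785132 in library 1 and 784643 to 785068 in library 2, so that it was 554 and 426 bp wide. Moved by 1 repeat length, its end fell 2 bp from the end of the peak around Tdel_RDN5-1 in library 1 and 21 bp from it in library 2. Its place relative to the 25S gene was thus that of the right-hand part of the other Orc1 peaks. Sequence was not used here, so whether either flank of the array holds spacer sequence of the repeat was not examined. On the other flank, right of Tdel_RDN18-3, the stretch 1 repeat length beyond the library 1 peak of the second spacer is 809402 to 811326. No list had a peak there.

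Peak edges recurred from repeat to repeat more closely than they did from library to library. In Orc1 library 1 the starts in the first and second spacer differed by 33 bp and the ends by 1 bp, after subtraction of the repeat length. In Orc1 library 2 the starts differed by 19 bp and the ends by 18 bp. Between both Orc1 libraries the starts differed by 118 and 170 bp and the ends by 87 and 104 bp at these spacers. The sequence identity of the copies was not examined, and how reads that match several copies were placed is not known from the sources at hand. Reads of 1 copy may have been placed at another, so the copies were not taken as independent measurements of Orc1.

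Summits of Orc1 lay on the 18S side of the 5S gene, the side that holds the origin in S. cerevisiae. In library 1 they were 506 and 499 bp before the start of the 5S gene in the first and second spacer, 7 bp apart on the repeat. In library 2 they were 459 and 145 bp before it, 314 bp apart. The left-flank peak had its summit at a place of the 25S-side spacer, 901 bp from the 5S start on the repeat in library 1 and 785 bp in library 2. No single summit position was therefore shared by all 6 Orc1 peaks.

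**Figure D2:**
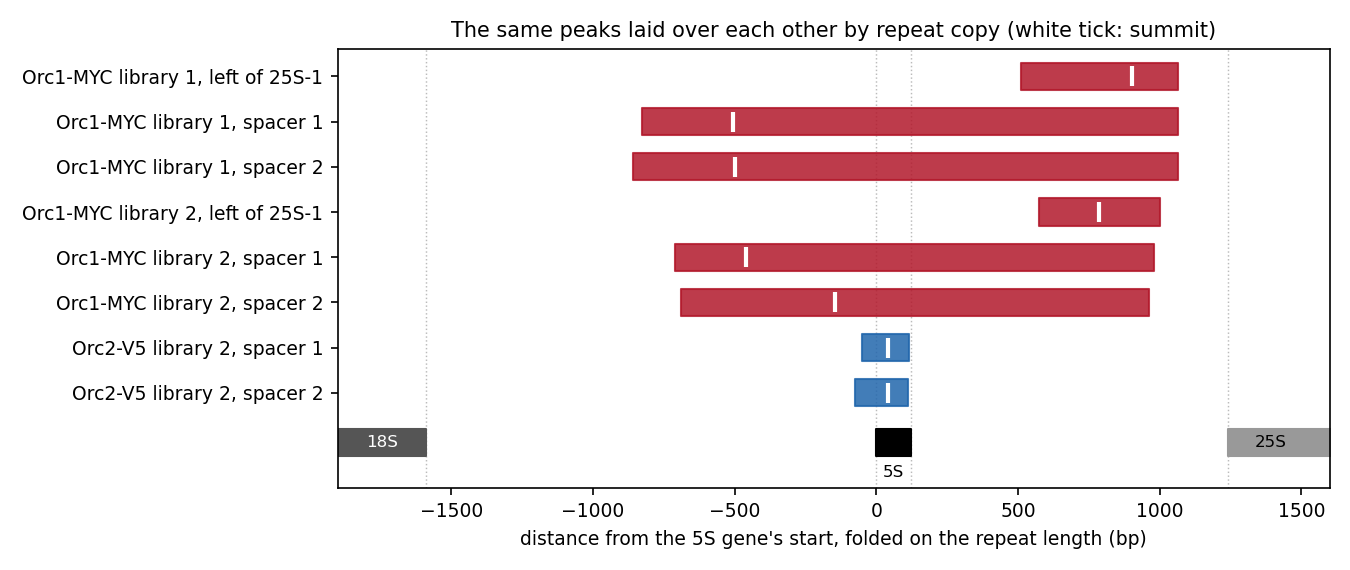
The 8 rDNA peaks laid over each other by distance in bp from the start of the 5S gene, folded on the repeat length of 8731 bp. Bars are peaks and white ticks summits. Orc1 peaks at both spacers span the 5S gene and reach further than the Orc2 peaks on either side, while the left-flank peaks hold only the 25S side.

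Orc2 and Orc4 were nearly absent from the rDNA lists. Orc2 library 2 had 2 peaks, at 792749 to 792914 and 801456 to 801641, and Orc2 library 1, Orc4 library 1 and Orc4 library 2 had none in the window. The Orc2 peaks were 166 and 186 bp wide, and both lay inside the Orc1 peaks of both libraries. They covered 115 of the 121 bp of Tdel_RDN5-1 and 111 of those of Tdel_RDN5-2, with summits inside the gene, 42 and 43 bp from its start. They took in 51 and 75 bp of the 18S-side spacer and nothing of the 25S-side spacer. With fold enrichments of 1.34 and 1.32 they were the next-lowest and the lowest of the 342 peaks of that list. By −log10 q, at 5.39 and 5.12, they ranked 262 and 266 from the highest.

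Peaks covered 4372 and 3765 bp of the window in the Orc1 libraries, against 0 and 352 bp in the Orc2 libraries and 0 and 0 bp in the Orc4 libraries. Both Orc1 values lay above all 4 others. Means were 4068.5 ± 429 bp for Orc1 (SD, n = 2) and 88.0 ± 176 bp for Orc2 and Orc4 together (SD, n = 4). The difference of 3980.5 bp gave an exact permutation p of 0.0667, two-sided over the 15 ways to draw 2 of the 6 libraries. That is the smallest p this design allows, so that no comparison here could pass 0.05. Against the 2 Orc2 or the 2 Orc4 libraries alone the smallest possible exact permutation p is 0.333.

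The same order held for each place within the repeats. In the 18S-side spacers Orc1 peaks covered 1687 and 1399 bp in all, against 0 and 126 bp for Orc2 and 0 and 0 bp for Orc4. In the 25S-side spacers they covered 1889 and 1698 bp, against 0 bp in each Orc2 and Orc4 list. Within rRNA genes the lengths were closest, 242 and 242 bp for Orc1 against 0 and 226 bp for Orc2 and 0 and 0 bp for Orc4, all of it in the 5S genes. Outside the repeats Orc1 covered 554 and 426 bp and the other lists 0 bp. As a share of all length under peaks in a list, the window took 1.65% and 0.975% in Orc1, 0% and 0.169% in Orc2 and 0% in both Orc4 lists. Over the 7 measures compared, each exact permutation p and each adjusted p was 0.0667.

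**Figure D3:**
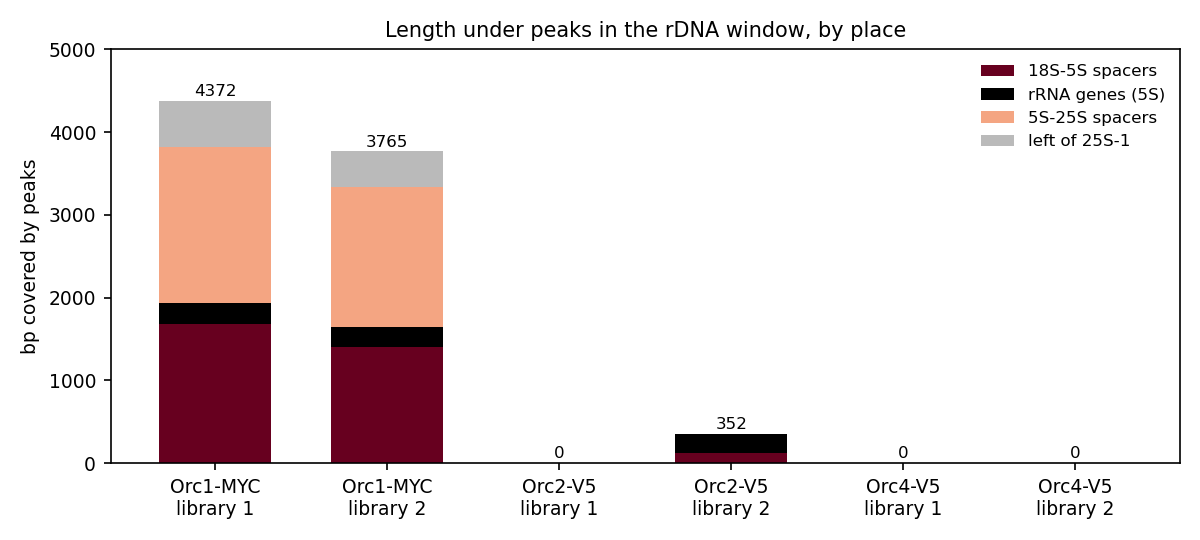
Length under peaks in the window of each library, in bp, stacked by place. The Orc1 libraries reach 4372 and 3765 bp, most of it in the spacers, and Orc2 library 2 reaches 352 bp, most of it in the 5S genes.

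As merged regions, peaks of the window formed 3 of the 542 regions of the genome. The left-flank region was in both Orc1 lists and in no other list, a pattern called for 3.14% of all regions. The regions around the 5S genes were in both Orc1 lists and Orc2 library 2, a pattern found at 3 of 542 regions (0.554%), of which these were 2. As repeat copies that may share reads, these 2 are not independent cases. Peaks in both Orc1 lists were common, with 41.7% of all regions. With Orc2 library 2 left out, or with only peaks of −log10 q at least 10, all 3 rDNA regions were in the Orc1 lists alone. Both settings remove the only Orc2 peaks of the window, at −log10 q of 5.39 and 5.12, so this outcome was fixed beforehand. The share of all regions with that pattern was not computed under these settings, so this count has no background beside it.

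Orc1 fold enrichment at the rDNA was low for these lists. Fold enrichment is the authors' ratio of immunoprecipitate to control at the summit, and values of Orc1 and Orc2 stand relative to different controls. In library 1 it was 2.36 at the left flank, 2.82 at the first spacer and 2.995 at the second, which ranked 239, 214 and 209 of 263 peaks from the highest. In library 2 it was 2.27, 2.47 and 2.42, which ranked 267, 247 and 254 of 300. Median fold enrichment of all peaks was 6.50 in library 1 and 6.23 in library 2. Yet the spacer peaks were among the widest of their lists, with 1893 and 1925 bp in library 1 (ranks 16 and 15) and 1688 and 1651 bp in library 2 (ranks 31 and 32). Median widths were 903 and 884 bp.

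Other peaks of like fold enrichment rested on far fewer fragments. The number of fragments over a summit and the control level there can be recovered from the deposited fold enrichment and −log10 p with MACS2's formulas, as described below. In Orc1 library 1 the rDNA summits held 253, 285 and 300 fragments, from the left flank to the second spacer, against control levels of 107, 100 and 99.5. In Orc1 library 2 they held 214, 303 and 296 fragments, against control levels of 93.5, 122 and 122. The 28 other peaks of library 1 with fold enrichment between those of the rDNA peaks had a median of 42 fragments, and the 18 such peaks of library 2 had 36. The −log10 q of the rDNA peaks ran from 30.9 to 56.4 in library 1 and from 24.5 to 41.0 in library 2, against medians of 6.59 and 4.73 for those other peaks.

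The control level of the rDNA was the highest in both Orc1 lists. Its 3 peaks held the first 3 ranks by control level in each list, at 7.60 to 8.16 times the lowest control level in library 1 and 6.59 to 8.59 times in library 2. Fragments in excess of the control numbered 146, 185 and 201 in library 1 and 120, 181 and 174 in library 2, against medians of 103 and 112 over all peaks. By excess the spacer peaks ranked 39 and 29 of 263 in library 1 and 56 and 67 of 300 in library 2. The Orc1 spacer peaks were thus low in their list by ratio and high by difference. The peaks of Orc2 library 2 had 91.1 and 91.9 fragments in excess, against a median of 98.4 in that list. By excess they ranked 181 and 179 of 342. The number of repeats per cell was not measured, so the 3 annotated units need not be all of them.

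Exact Poisson 95% intervals of the fold enrichment at the first and second spacer, with the control level taken as known, were 2.50 to 3.17 and 2.67 to 3.35 in Orc1 library 1 and 2.205 to 2.77 and 2.15 to 2.71 in Orc1 library 2. The intervals cover counting error only, since PCR copies are not independent molecules, and they give no test between the spacers, which may share reads.

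**Figure D4:**
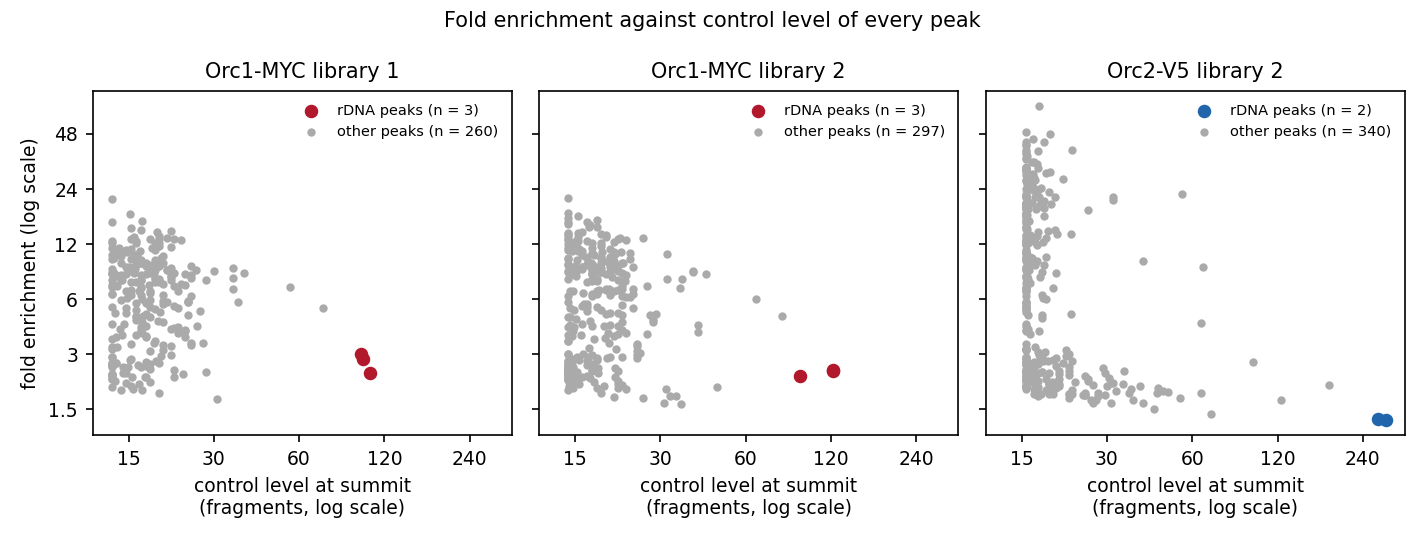
Fold enrichment against recovered control level at the summit, both on log axes, for every peak of the lists with rDNA peaks. Coloured points are rDNA peaks and grey points all others. In each panel the rDNA points stand at the right, with control levels of 93.5 to 122 in the Orc1 lists and 271 and 289 in Orc2 library 2.

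The control level from the mock was high at the Orc2 summits in the 5S genes. It is the level MACS2 used at a summit, and the width of the stretch it was taken over is not given. It therefore does not place the mock's own signal within the repeat. At the Orc1 summits of the spacers the control level from the input stood at 7.60 to 8.59 times the lowest level of its list. At the Orc2 summits of library 2, up to 548 bp away, the control level stood at 17.5 and 18.7 times the lowest level. These summits had 362 and 381 fragments against control levels of 271 and 289. The part of this difference between controls in the difference between subunits was not tested. The other lists with the mock had no recovered control level at the rDNA. If it stood as high there relative to their lowest level, a peak needed some smallest fold enrichment to reach their smallest listed −log10 p. That fold enrichment is 1.18 in Orc2 library 1, 1.17 in Orc4 library 1 and 1.203 in Orc4 library 2. Under this condition a smaller one at the 5S genes was not detectable there.

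Some genes that act on the rDNA had peaks beside them. Of 29 genes known from S. cerevisiae for rDNA transcription, rDNA silencing or the fork barrier, 25 had a symbol in the gene table. Peaks of both Orc1 lists lay within 1000 bp of 5 of the 25 (20%), against 11.2% of all genes. Of these 5, RPA190 and RPA43 shared 1 peak, so they are not separate sites. For Orc2 the count was 4 (16%), against 12.3% of all genes, and for Orc4 it was 3 (12%), against 11.2% of all genes. The Orc2 and Orc4 shares were thus near those of all genes, and no difference from all genes was tested for any subunit. FOB1, for the fork barrier protein, and SIR2, for the rDNA silencing deacetylase, had no such peak in both lists of any subunit.

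All 3 subunits were listed beside 3 of these genes. Beside NET1, whose product anchors silencing factors to the rDNA, the Orc1 lists had fold enrichments of 10.9 and 13.4, the Orc2 lists 25.2 and 22.4, and the Orc4 lists 27.9 and 22.9. RPA49, for a subunit of RNA polymerase I, had 8.05 and 12.6 in the Orc1 lists, 20.4 and 21.6 in those of Orc2, and 21.7 and 16.2 in those of Orc4. RPA14, for another subunit of that polymerase, had 11.4 and 12.5 in the Orc1 lists, 21.2 and 19.3 in those of Orc2, and 23.95 and 15.98 in those of Orc4. At these sites, unlike the rDNA, each of the 6 lists held a peak, as was the case at 198 of all 542 merged regions. The share of all genes with peaks of all 3 subunits was not computed.

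The remaining genes of the list had lower values. RPA190 and RPA43, also for RNA polymerase I subunits, are neighbours on chromosome 8 and shared 1 Orc1 peak between them, at 680172 to 680550 with 2.91 in library 1 and at 680297 to 680554 with 3.03 in library 2. Neither Orc2 nor Orc4 was listed there. RRN10, for a subunit of the upstream activating factor of RNA polymerase I, had Orc2 peaks of 1.68 and 1.63, a peak of 1.72 in Orc4 library 1, and none for Orc1.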

How the data were processed

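ChIP-seq had been done by the authors on 6 immunoprecipitates and 3 controls. Per the submitters' processing notes, the tools were MACS2 2.2.7.1, Bowtie2 2.3.4.1 and cutadapt 2.10. Neither settings nor a build is given in the sources used here. Peak names of all 6 lists hold the word subsample. Deposited lists give each peak's fold enrichment (a ratio to the control) and −log10 p and −log10 q, called per library against the control named in the peak names. List sequences were taken as chromosomes in number order. On the chromosome of the same number, 65.5% to 76.3% of a sequence's summits fell outside genes, against at most 36.0% on another. Only other chromosomes long enough to hold a sequence's summits were compared. Sequence 1 had 0 of these, so the check says nothing of it, and sequence 2 had 1. For every sequence with another chromosome to compare, the same number was highest.

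Peaks merged if they overlapped by at least 1 bp. Values per library were compared with exact permutation tests over libraries, with Benjamini-Hochberg adjustment, in Python 3.11.15, numpy 2.4.6, pandas 2.3.3 and scipy 1.17.1 (plots with matplotlib 3.10.9). Members, lists and tests were chosen with earlier results of these data known. All rRNA genes, neighbouring protein-coding genes, rDNA peaks and hit genes of the fixed list were named. UAF30, TOF2, NSI1 and REB1 had no symbol in the gene table.

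The lists hold no read counts. The whole number of fragments was sought for which MACS2's fold (pseudocount 1) and Poisson tail give the deposited −log10 p, an analysis added after seeing the data. It matched within 0.001 for 1873 of 1900 peaks, with a largest misfit of 0.00607. The next whole number missed by a median of 0.462, and without the pseudocount 14 peaks matched. No peak fell below the most frequent control level of its list, 13.1 to 18.2 fragments, called the lowest level here. At summits of Orc2 library 2 with a control over 1.2 times this level, relative control levels of the other lists with the mock were 0.955 to 0.996 times as high (medians). These medians rest on 27 summit pairs for Orc2 library 1, 20 for Orc4 library 1 and 14 for Orc4 library 2. The 10th percentiles were 0.973, 0.869 and 0.888 in the same order. The recovery was tested on simulated data. Input and mock entered only through the peak calls.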

Additional observations from a re-analysis of the deposited data

Results flagged for a closer look

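Orc2 library 2 stood apart from the other Orc2 and Orc4 lists in 5 measures of the rDNA, by a gap test within the 4 lists. It had 2 peaks in the window, 352 bp under peaks, 0.169% of the length of its list, 126 bp in the 18S-side spacers and 226 bp in rRNA genes, where each of the other 3 lists had 0. All 5 rest on the same 2 peaks at the 5S genes, so they are 1 event. With the other 3 lists at exactly 0, any value above 0 would have been marked, so the gap says nothing of its size, and the usual chance rate of 1 in 20 groups does not apply. The 4 lists join 2 subunits.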

How the results depend on the processing

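In all 68 tested alternatives of the 7 measures the mean of Orc1 stayed above the mean of Orc2 and Orc4. None could pass the threshold, since the smallest exact permutation p rises with fewer libraries, so this says nothing of significance. With libraries exchanged only within replicate numbers (a replicate block) the difference stayed 3980.5 bp, and each exact permutation p was 0.111, the smallest that 9 arrangements allow. The numbers were not taken to pair the libraries: differences between library 1 and 2 over 198 shared regions correlated at 0.06 for Orc1 with Orc2, −0.15 for Orc1 with Orc4 and 0.19 for Orc2 with Orc4. Leaving out 1 library gave differences of 3677 to 4284 bp in the window, 2.33 to 3.0 peaks and 0.932 to 1.61 percentage points of list length. From the first to the last rRNA gene, without the left flank, the difference in peaks was 1.5 (exact permutation p = 0.4). There Orc2 library 2 had as many peaks as each Orc1 list. The number of rDNA regions in the Orc1 lists alone, 1, was 3 with −log10 q of at least 10. It was 1 to 3 when an Orc2 or Orc4 library was left out, with 3 only without Orc2 library 2 (a choice made after seeing the data). Both ways to reach 3 remove the only Orc2 peaks of the window, so that number was fixed beforehand. The share of all regions in the Orc1 lists alone was not computed for these settings. Under the condition given above, the control level and smallest listed −log10 p bound the Orc2 and Orc4 lists at the 5S genes. For the rest of the spacers no control level could be recovered in them.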

Other observations

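The window lies 22.0 to 54.0 kb from the right end of chromosome 8, where the last gene or peak ends. Orc1 peaks covered 4372 and 3765 bp there, against medians of 1028 and 1060 bp at the same distance from the other 15 chromosome ends. Of these ends, 2 had more than the rDNA window in library 1 and 3 in library 2. For Orc2, with 0 and 352 bp, the medians were 479 and 499 bp, with 10 and 9 ends above the rDNA window, and for Orc4, with 0 and 0 bp, they were 699 and 356 bp, with 10 and 8 ends above it. More length under Orc1 peaks than under those of Orc2 or Orc4 was not particular to the rDNA. At the left end of chromosome 7 it was 3643 and 5804 bp, against 0 to 1003 bp in the Orc2 and Orc4 lists. At the right end of chromosome 5 the order was reversed, with 0 and 327 bp against 356 to 614 bp. The nearest Orc1 peaks outside the window lay 6058 bp to its right in library 1 and 1674 bp in library 2, and over 33 kb to its left in both.

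Control levels were recovered only at listed peaks, and 3 of the 4 lists called against the mock have none at the rDNA. In Orc4 library 1 the peak at 430 to 964 on chromosome 1, at the chromosome's left end, had 769 fragments against a control level of 470, which is 25.9 times the lowest level of that list. The highest of Orc2 library 1 was on chromosome 5, at 51152 to 51545, with a control level of 171 fragments, 10.2 times the lowest level of that list.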
